A study of Mus musculus with 2 samples.

Results

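The cells described here are the fibroblasts of the meninges and of the spaces around blood vessels, found among cells dissociated from the hippocampus. They were chosen from cells with 500 or more unique molecular identifiers (UMIs), which are short tags that mark single molecules. A cell was taken where the summed UMIs of Col1a1, Col1a2, Fmod, Slc6a13, Slc22a6 and Aldh1a2 reached 5, made up at least 10 per 10000 UMIs of the cell, and were at least 2 times each of 3 other sums. Those sums were Cldn5, Flt1 and Pecam1 for endothelial cells, Pdgfrb, Rgs5 and Acta2 for mural cells, and Mog, Mag, Aqp4, Csf1r and Slc17a7 for glia and excitatory neurons. No sum was set against inhibitory neurons or choroid plexus epithelial cells, so the rule did not limit RNA of these types in the chosen cells. The rule found 572 fibroblasts among 31095 cells, 200 of 15912 in the control library and 372 of 15183 in the tomatidine library. Because measured levels chose the cells, the levels of these genes and every contrast of fibroblasts with other cells are given as a description.

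The study asked what tomatidine, a steroidal alkaloid given by mouth, does to senescence in the brain of old mice. Both libraries came from hippocampus of C57BL/6 mice that were 21 months old when treatment began and were fed for 3 months, the control group on diet without the compound and the other group on diet with 0.05% tomatidine. The study used both sexes, and hippocampi of 4 mice were pooled into 1 library per group. The tissue was flash-frozen, fixed and dissociated, so the fibroblasts are those that stayed with the dissected hippocampus. With 1 pooled library per group there is no replicate, no test between the groups is possible, and a difference between the libraries cannot be told apart from a difference between the dissections or preparations. All intervals below are at 95% and cover counting error only.

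Fibroblasts of the brain lie in the leptomeninges, the pia and arachnoid that wrap the brain surface, in the dura above them, and along larger vessels where pial fibroblasts follow them into the tissue. They make fibrillar collagens, basement membrane and small proteoglycans, and those of the arachnoid are joined by junctions and form a barrier to the outside. Leptomeningeal fibroblasts are also known for organic anion, amino acid and nucleoside transporters, for retinoic acid synthesis, and for signals such as CXCL12 and BMPs that act on nearby cells.

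Of the 6 genes of the rule, Col1a1 and Col1a2 encode the chains of type I collagen, and Fmod encodes fibromodulin, a small proteoglycan that binds collagen fibrils. Slc6a13 encodes a transporter of GABA and taurine, Slc22a6 an organic anion transporter, and Aldh1a2 a dehydrogenase that makes retinoic acid. In GENCODE's annotation of GRCm38, the Fmod gene lies at chr1:134037254-134048277, Slc22a6 at chr19:8618039-8628299 and Aldh1a2 at chr9:71215789-71296243, all on the plus strand. Col1a1 is at chr11:94936224-94953042, Col1a2 at chr6:4504814-4541544 and Slc6a13 at chr6:121300227-121337733, also on the plus strand. The 100 bases before the RefSeq start (GRCm38.p6, plus strand) are shown for a matrix, a transporter and a retinoid gene, to let the start regions of genes with a like cell pattern be compared. Capitals mark CCAAT or its reverse complement ATTGG.
Fmod, chr1:134037154-134037253: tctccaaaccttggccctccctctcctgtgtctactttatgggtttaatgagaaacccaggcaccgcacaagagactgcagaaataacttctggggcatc
Slc22a6, chr19:8617896-8617995: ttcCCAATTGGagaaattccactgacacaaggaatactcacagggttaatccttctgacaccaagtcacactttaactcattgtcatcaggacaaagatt
Aldh1a2, chr9:71215689-71215788: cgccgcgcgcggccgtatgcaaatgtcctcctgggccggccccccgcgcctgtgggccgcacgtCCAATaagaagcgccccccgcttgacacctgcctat
On either strand, CCAAT occurred in 18.9% of 32844 promoter windows of this length, TATAAA in 5.56% and GTAAACA, the core bound by forkhead factors, in 1.12%. Of the 6 rule genes and 11 other leading or abundant genes looked up, 13 had an entry. Among these 13, CCAAT was present in 5, TATAAA in 1 (Il13ra2) and GTAAACA in 0. In Slc22a6 the motif and its reverse complement share letters.

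The fibroblasts were shallower than neurons. Their median was 3999 UMIs and 2204 genes in the control library and 3780 UMIs and 2101 genes in the tomatidine library, against medians of 16968 and 15926 UMIs in excitatory neurons. The smallest fibroblast had 562 UMIs in the control and 831 in the tomatidine library, and the largest had 40779 and 50058. In all, 1072682 control and 1825682 tomatidine UMIs came from fibroblasts. The median mitochondrial share was 0.99% in control and 0.97% in tomatidine fibroblasts. The libraries shared 292 barcodes, but 0 fibroblast barcodes occurred in both. Scrublet, a caller of doublets (droplets with more than 1 cell), called 0 cells by its own threshold, and among the top 2% of its scores, 319 control and 304 tomatidine cells, were 0 fibroblasts.

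Cells near each limit of the rule were counted. The summed rule markers had a median of 26 UMIs in control fibroblasts, from 5 to 216, and of 29 UMIs in tomatidine fibroblasts, from 5 to 373. Exactly 5 UMIs were found in 5 control and 19 tomatidine members, while 6 control and 21 tomatidine cells stayed outside with 4 UMIs. Between 10 and 12 per 10000 UMIs lay 2 control and 7 tomatidine members, and 0 control and 1 tomatidine cells fell between 8 and 10. A further 42 control and 68 tomatidine cells met the first limits but not the comparison with the other sums. With rule markers at 4 times those sums, 166 control and 337 tomatidine members would remain.

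Each of the 6 markers was found in most fibroblasts of both libraries. Col1a2 had a UMI in 93.5% of control and 90.6% of tomatidine fibroblasts, and in 1.90% and 2.80% of excitatory neurons, which should lack it. Aldh1a2, the least often found of the 6, had a UMI in 67.5% of control and 72.8% of tomatidine fibroblasts against 1.32% and 2.27% of neurons. Fmod was found in 78.0% and 80.1%, Slc6a13 in 82.0% and 83.9%, and Slc22a6 in 71.5% and 73.9% of control and tomatidine fibroblasts. Not every cell carried every marker, and the plot of single cells shows cells at 0 for each gene in both libraries.

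**Figure D1:**
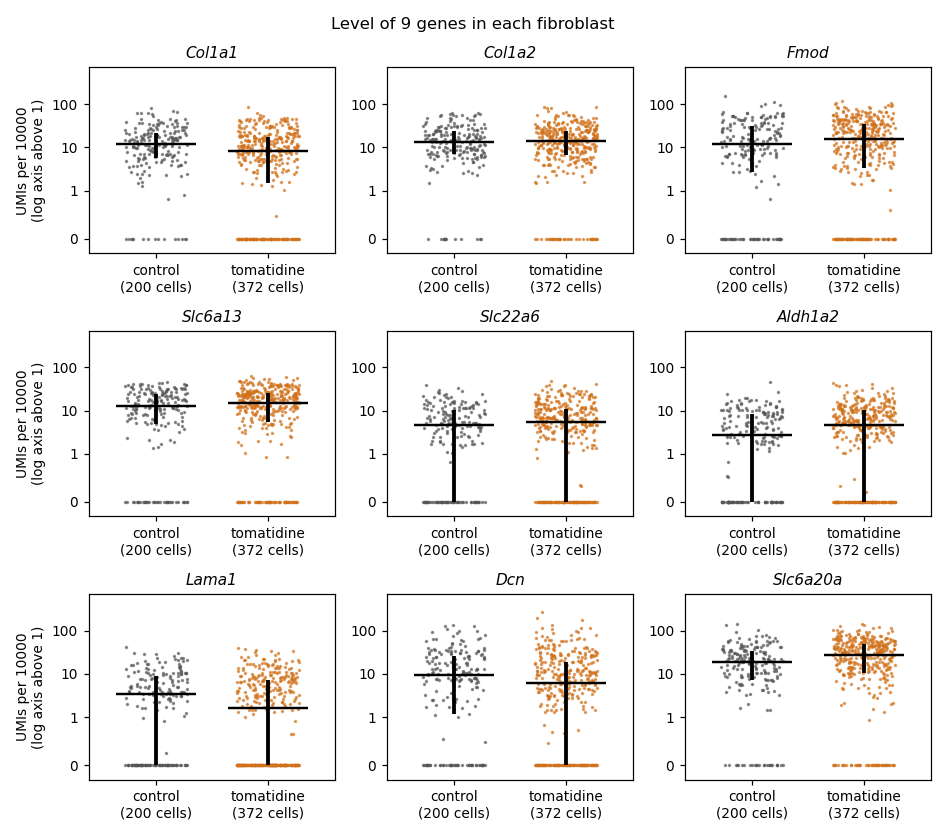
Level of the 6 rule genes and of Lama1, Dcn and Slc6a20a in each fibroblast, as UMIs per 10000 UMIs of the cell (linear below 1 and logarithmic above). Points are cells of the control (200) and tomatidine (372) library, horizontal bars the median and vertical bars the quartiles. For Col1a1 the median was 12 in control and 8.38 in tomatidine fibroblasts, for Fmod 11.7 and 15.7, and the spread of cells within a library was wider than either difference.

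Set beside 7 other classes chosen by similar gates, the fibroblasts stood apart by level. Levels below are CPM, the UMIs of a gene per 1000000 UMIs summed over the cells of a class, and they are compared between classes and libraries for 1 gene at a time. Ptgds, which encodes prostaglandin D synthase, a secreted carrier of lipids, was at 78460 CPM in control and 98987 CPM in tomatidine fibroblasts, against 6495 and 5970 CPM in oligodendrocytes. Igf2, a growth factor of the insulin family, was at 6193 and 6633 CPM in fibroblasts and at 3752 and 3764 CPM in choroid plexus epithelial cells. Slc6a20a, a proline transporter, was at 2039 and 2984 CPM in fibroblasts, 927 and 847 CPM in mural cells and 257 and 204 CPM in choroid plexus cells. Thus these genes were highest in fibroblasts in both libraries, while choroid plexus or mural cells also held a substantial level. Vtn, the gene of the adhesive glycoprotein vitronectin, went the other way, with 4204 and 6049 CPM in fibroblasts and 13066 and 13631 CPM in mural cells.

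The defining markers of neighbouring cell types were low in the fibroblasts, in part because the rule kept them low. Cldn5, the claudin of endothelial tight junctions, was at 14.0 CPM in control and 4.93 CPM in tomatidine fibroblasts, against 3836 and 4263 CPM in endothelial cells. Rgs5, a pericyte gene, was at 13.1 and 15.3 CPM against 4003 and 3054 CPM in mural cells. Pdgfrb was the exception, as is known for brain fibroblasts, with 297 and 266 CPM in fibroblasts and 1894 and 1852 CPM in mural cells. As the rule used these genes, their levels are no check of the label. Whether a given cell lay in the meninges or along a vessel was not measured.

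**Figure D2:**
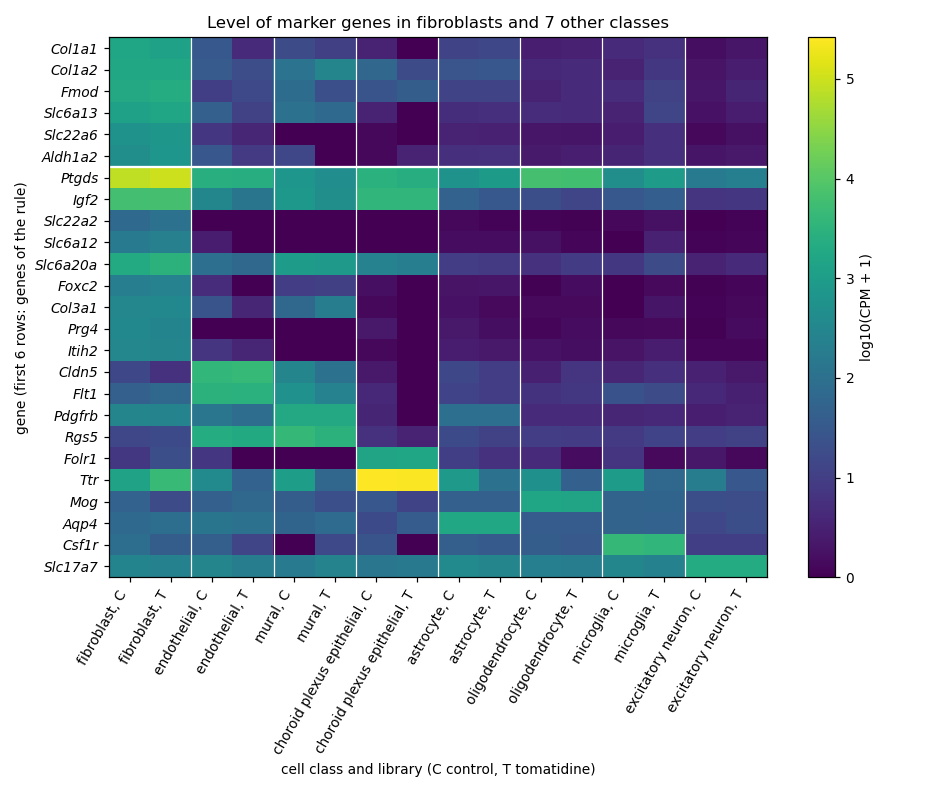
Level of 25 genes in fibroblasts and 7 other classes of each library, as log10(CPM + 1), with the 6 genes of the rule above the white line. Ptgds at 78460 CPM in control and 98987 CPM in tomatidine fibroblasts is the brightest entry of the fibroblast columns, and Ttr that of the choroid plexus columns.

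The genes that led the fibroblasts over all other cells were transporters, matrix genes, enzymes and a forkhead factor. Ranked by the lower of the ratios in the 2 libraries among 3573 genes with at least 200 UMIs in fibroblasts, 5 of the first 15 were genes of the rule. Slc22a2, an organic cation transporter, was 519-fold higher in control and 712-fold higher in tomatidine fibroblasts than in other cells of the same library. Il13ra2, a receptor that captures interleukin 13, was 437-fold and 632-fold higher, and Slc6a12, a betaine transporter, 459-fold and 430-fold. Among secreted and matrix genes were Itih2, of a family that binds hyaluronan, at 610-fold and 376-fold, Prg4, the lubricant proteoglycan of joints, at 912-fold and 252-fold, and Col3a1, the chain of type III collagen, at 336-fold and 297-fold. Prg4 was at 331 CPM in control and 272 CPM in tomatidine fibroblasts. Without the cell with the most Prg4 UMIs in each library, its log2 ratio of tomatidine over control turned to 1.16 (0.84 to 1.48). The 912-fold thus rests largely on 1 control cell. Foxc2, a forkhead transcription factor, was 577-fold and 322-fold higher. The others were the complement gene C2 (461-fold and 304-fold), the aldehyde oxidase Aox3 (320-fold and 272-fold) and Fgfbp1, a carrier of fibroblast growth factors (435-fold and 270-fold). Across 9402 genes with 20 UMIs in fibroblasts of each library, 5.81% were at least 8-fold higher in both. Among the lists, this held for 9 of 9 small leucine-rich proteoglycans, 15 of 21 basement membrane genes, 17 of 26 collagens, 18 of 33 solute carriers, 8 of 16 retinoid genes, 12 of 26 growth factor ligands and 3 of 12 chemokines and cytokines. It held for fewer members of some other lists, with 0 of 23 cholesterol, 1 of 25 heat shock, 1 of 24 immediate early and 1 of 14 senescence genes. These counts include the rule genes (Fmod, both type I collagen chains, Slc6a13, Slc22a6 and Aldh1a2), and the contrast is that of the rule, so they describe the chosen cells.

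Fibroblasts made up a larger share of the tomatidine library. The share was 1.26% of cells (1.09 to 1.44%, exact binomial interval) in the control and 2.45% (2.21 to 2.71%) in the tomatidine library, a difference of 1.19 points (0.895 to 1.5, Newcombe interval) and a ratio of 1.95. Other classes of vessel and brain surroundings moved unequally. Endothelial cells went from 0.716% to 1.24% and mural cells from 0.302% to 0.316%, whereas choroid plexus epithelial cells were 1.48% of the control and 0.125% of the tomatidine library, 236 against 19 cells. Astrocytes went from 5.13% to 7.56% and oligodendrocytes from 21.3% to 17.5%. The share of fibroblasts thus lay beside unequal shares of several classes, and the part that dissection played in it was not tested. Under the study's filter (over 250 genes, a log10 ratio of genes to UMIs above 0.8 and under 20% mitochondrial UMIs) the difference was 1.22 points, and with further limits of 6000 genes and 10% mitochondrial UMIs, the stricter end of the range its quality control gives, it was 1.61 points, where 194 control and 364 tomatidine fibroblasts remained over smaller totals of cells.

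Within a library, the rule genes varied unequally from cell to cell. The following rank correlations (Spearman) are descriptions over 200 control and 372 tomatidine cells, whose levels share the depth of each cell. Of the pairs given here, the 2 type I collagen chains were the most closely tied, at 0.56 in control and 0.48 in tomatidine cells, and the transporters Slc6a13 and Slc22a6 were at 0.30 and 0.42. Slc6a13 was at 0.25 and 0.25 with Aldh1a2 and at 0.23 and 0.19 with Fmod. Col1a1 was nearly unrelated to Fmod, at 0.10 and 0.03, and to Slc6a13, at 0.13 and 0.13. Ptgds was positively related to Fmod, at 0.38 and 0.35, and negatively to Col1a1, at −0.23 and −0.24. In both libraries Ptgds thus had opposite signs with Fmod and with Col1a1. In counts this sparse a weak correlation is no finding.

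Lists of genes for the layers of the meninges gave a similar picture. The pial and perivascular list, which holds Lum, Cxcl12, Lama1 and other matrix genes, had a median summed level of 38.7 per 10000 UMIs in control and 31.3 in tomatidine fibroblasts. The arachnoid list was at 10.2 and 10.8, and the dural list at 2.55 and 2.14. The arachnoid sum exceeded the pial sum in 33 control cells, or 16.5% (11.6 to 22.4%), and in 93 tomatidine cells, or 25% (20.7 to 29.7%). Across cells the pial and arachnoid sums were unrelated, at 0.01 in control and −0.02 in tomatidine cells. The sums depend on which genes a list holds, so they place neither a cell nor a library in a layer.

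A few small sets of fibroblasts had profiles of their own. Each was gated on at least 5 UMIs of 5 genes together, a cell was given to the gate with the largest sum, and the gates were chosen after values were seen, so the shares and levels below are descriptions. Gated on Alpl, Emcn, Dpep1, Tcf21 and Itga8 together were 12 control cells, or 6.00% of control fibroblasts (3.14 to 10.2%), and 1 tomatidine cell, or 0.269% (0.00681 to 1.49%). In the 12 control cells Alpl, which encodes tissue-nonspecific alkaline phosphatase, was at 6208 CPM, the sialomucin gene Emcn at 1120 CPM and the integrin gene Itga8 at 1538 CPM. Igfbp4 was at 4931 CPM and Igfbp7 at 3313 CPM, both encoding binding proteins of insulin-like growth factors, and Cxcl12 was at 4286 CPM. Ptgds was at 1368 CPM in these cells against 95944 CPM in the control fibroblasts outside the sets, and Slc6a13 was at 90.5 CPM. They were low in the transporters of the other fibroblasts but kept the forkhead gene Foxc1 at 407 CPM.

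Another set, gated on Slc47a1, Bche, Slc26a7, Adamtsl3 and Cdh1, had 9 control cells (4.50%, 2.08 to 8.37%) and 20 tomatidine cells (5.38%, 3.31 to 8.18%). Slc47a1, which encodes an exporter of organic cations, was at 1305 CPM in control and 2088 CPM in tomatidine cells of the set, and the secreted matricellular gene Ccn3 at 6293 and 8027 CPM. The bicarbonate transporter gene Slc4a10, outside the gate, was at 3299 and 3141 CPM, and of the gate genes the anion exchanger gene Slc26a7 was at 679 and 931 CPM and the E-cadherin gene Cdh1 at 554 and 710 CPM. Dcn, the proteoglycan decorin, was at 35.8 and 73.5 CPM, and Lum, its relative lumican, had 0 UMIs in either library. The third set, gated on Mfap5, Pi16, Eln, Fbln2 and Ngfr, had 18 control cells (9.0%, 5.42 to 13.8%) and 27 tomatidine cells (7.26%, 4.84 to 10.4%). It was rich in Dcn (5267 and 5661 CPM), Col1a1 (3610 and 2739 CPM) and the connective tissue growth factor gene Ccn2 (4699 and 4023 CPM). Of the gate genes, the elastin gene Eln was at 1303 and 683 CPM. The remaining 161 control and 324 tomatidine fibroblasts carried most of the Ptgds, with 95944 and 112857 CPM, and of Slc6a20a, with 2568 and 3368 CPM.

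**Figure D3:**
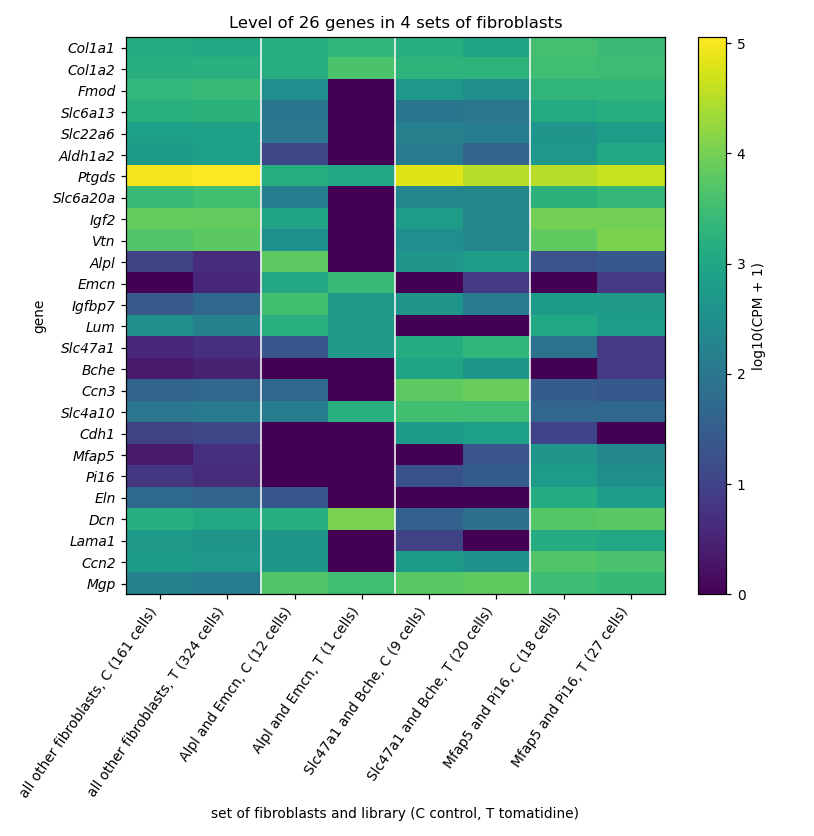
Level of 26 genes in 3 sets of fibroblasts gated after values were seen and in all other fibroblasts of each library, as log10(CPM + 1). Ptgds is high in the other fibroblasts (95944 CPM in control) and at 1368 CPM in the 12 control cells with Alpl and Emcn, and the tomatidine column of that set is 1 cell.

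Between the libraries, most fibroblast genes kept a similar level. A gene was counted as higher or lower in the tomatidine library where its CPM ratio was at least 1.5-fold and the counting interval left out 1. Of 11634 genes with 20 or more UMIs, 358 were higher (3.08%) and 546 lower (4.69%), and the median log2 ratio was −0.03. Every count of list members below, in either direction, is to be read against these shares. From the 5th to the 95th percentile the log2 ratio ran from −0.72 to 0.66. By the same limits, 3.28% of genes were higher and 2.79% lower in endothelial cells, 4.71% and 5.15% in mural cells, and 9.20% and 2.25% in choroid plexus epithelial cells. The counts rest on 2 pools of animals and on unequal numbers of cells.

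At the lower end of the ranking stood hormone, antigen presentation and Alpl genes, and for many of these 1 cell held a large part of the UMIs. Prl, the gene of prolactin, had 382 UMIs in control and 0 in tomatidine fibroblasts, and 379 of them were in 1 cell. Gh, the gene of growth hormone, had 174 and 6 UMIs, with 153 in 1 control cell, and the neuropeptide gene Vip had 136 and 13 UMIs, with 69 in 1 cell. The class II antigen presentation genes H2-Eb1 (266 and 52 UMIs), H2-Ab1 (276 and 54 UMIs) and H2-Aa (264 and 62 UMIs) and their partner Cd74 (631 and 174 UMIs) had between 160 and 281 UMIs in 1 control cell. Without the cell with the most UMIs of the gene in each library, the log2 ratio was still −2.15 for H2-Eb1, −1.87 for H2-Ab1, −1.74 for H2-Aa, −2.08 for Cd74, −3.57 for Gh and −3.37 for Vip. Vip turned to 2.51 with rule markers at 4 times the other sums, to 1.42 with the collagens left out of the rule, to 0.37 without cells holding a choroid plexus marker UMI and to 1.85 without cells rich in Ttr (20 or more per 10000 UMIs).

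Alpl, Emcn and Itga8 were in several cells of the sets described above. Alpl had 607 UMIs in 26 control cells and 114 UMIs in 21 tomatidine cells, or 566 and 62.4 CPM, a log2 ratio of −3.18 (−3.48 to −2.89). Emcn had 99 and 11 UMIs (log2 ratio −3.94) and Itga8 158 and 35 UMIs (log2 ratio −2.94). Of the Alpl UMIs, 549 of the control library were in the 12 cells of the Alpl set, and 105 of the tomatidine library were in the Slc47a1 set, while the 1 tomatidine cell of the Alpl set had 0. Ratios are also given below without every cell that had 5 or more UMIs of the 5 Alpl gate genes. This took out 16 control and 6 tomatidine cells, of which 4 and 5 belong to the Slc47a1 set, and left 184 and 366. For Alpl (0.58) and Itga8 (−0.47), which are gate genes, the outcome was fixed by what was left out.

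At the upper end, Myoc, the gene of myocilin, had 19 control and 419 tomatidine UMIs, but 402 were in 1 cell. Sst, the gene of somatostatin, had 43 and 357 UMIs, with 303 in 1 cell, and Ttr, the gene of transthyretin made by choroid plexus, 1390 and 8759 UMIs, with 7781 in 1 cell. Without the cell with the most UMIs of the gene in each library, the log2 ratio of Sst turned from 2.29 to −0.33 and that of Ttr from 1.89 to −0.88. Rab3b (14 and 119 UMIs, 78 in 1 cell), Gad1 (68 and 333, 70 in 1 cell), Gad2 (56 and 251, 63 in 1 cell), Grin3a (20 and 94, 41 in 1 cell) and Tmem130 (58 and 254, 66 in 1 cell) are genes of neurons. Atp13a5, a gene of a P-type ATPase, was spread over more cells, with 60 UMIs in 12 control cells and 317 UMIs in 65 tomatidine cells, a log2 ratio of 1.63 (1.23 to 2.06). Igfbp3, a binding protein of insulin-like growth factors, had 22 UMIs in 10 control cells and 92 UMIs in 30 tomatidine cells.

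**Figure D4:**
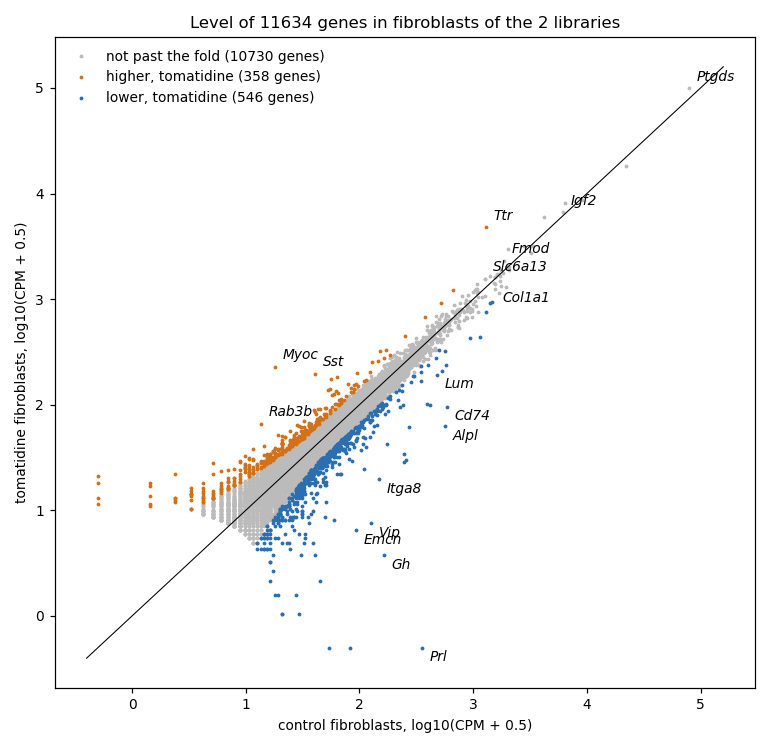
Level of 11634 genes in control fibroblasts (horizontal axis) and tomatidine fibroblasts (vertical axis), both log10 of CPM plus a constant of 0.5. Each point is a gene, orange for the 358 higher and blue for the 546 lower in the tomatidine library, and most genes lie along the diagonal from low levels up to Ptgds.

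None of the rule markers was past the fold. Col1a1 was at 1562 CPM in control and 1253 CPM in tomatidine fibroblasts, Col1a2 at 1683 and 1731 CPM, and Fmod at 1848 and 2290 CPM. Slc6a13 was at 1277 and 1565 CPM, Slc22a6 at 581 and 725 CPM, and Aldh1a2 at 470 and 685 CPM. The log2 ratios ran from −0.32 for Col1a1 to 0.54 for Aldh1a2, with 0 of 6 past the fold. In cells thinned to 1500 UMIs, which leaves out 17 control and 28 tomatidine cells, Col1a1 was found in 77.8% of control and 64.5% of tomatidine fibroblasts, a difference of −13.2 points (−20.6 to −4.88), where the unthinned shares were 92.5% and 76.6%. Aldh1a2 was found in 43.9% and 53.7% by the same thinning. These genes chose the cells, so the values are a description.

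Of 30 other fibroblast genes, 2 were higher and 1 lower (median log2 ratio 0.09), against 3.08% and 4.69% of all genes. Ranbp3l, whose protein binds Smad proteins in the nucleus, went from 521 to 917 CPM, a log2 ratio of 0.82 (0.68 to 0.96), and was found in 136 of 200 control and 283 of 372 tomatidine cells. Osr1, a zinc finger transcription factor of mesenchyme, went from 83.0 to 130 CPM. The lower gene was Lum, from 477 to 192 CPM, a log2 ratio of −1.31 (−1.51 to −1.11). Thinned to 1500 UMIs, Lum was found in 38.8% of control and 22.1% of tomatidine fibroblasts, a difference of −16.7 points (−25.0 to −8.48), against 0.531% and 0.443% of neurons, and unthinned in 53.5% and 34.4%. Ptgds, at a log2 ratio of 0.34 (0.32 to 0.35), and Igf2, at 0.10, were not past the fold.

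The lists of meningeal layers had medians on either side of that of all genes. In the pial and perivascular list 0 of 10 genes were higher and 3 lower, and all 10 had a ratio below 0, at a median of −0.39, where 3.08% of all genes were higher and 4.69% lower. Besides Lum these were Cxcl12, a chemokine that holds CXCR4-bearing cells, from 1464 to 931 CPM, and S100a6, a calcium-binding protein, from 78.3 to 48.2 CPM. With the Alpl gate cells left out, Cxcl12 had a log2 ratio of −0.43 and was no longer past the fold. Of 13 arachnoid genes, 1 was higher and 2 lower (median log2 ratio 0.17). The higher one was Wnt6, a Wnt ligand, from 185 to 294 CPM, while Cldn11, a claudin of arachnoid and myelin, went from 536 to 206 CPM, with 147 of 575 control UMIs in 1 cell. Dpp4, a peptidase, went from 40 to 26 UMIs, with 24 of the control UMIs in 1 cell. Its log2 ratio was −0.45 (−1.47 to 0.60) without the cell with the most UMIs of the gene in each library. Of 8 dural genes, 0 were higher and 3 lower (Alpl, the calcification inhibitor gene Mgp and the retinoid carrier gene Crabp1), at a median of −0.24. Mgp went from 1407 to 919 CPM, but was at −0.15 on the log2 scale without the Alpl gate cells and at 0.40 (0.25 to 0.54) without cells holding a choroid plexus marker UMI. These medians moved with the cells taken. With the collagens left out of the rule the pial, arachnoid and dural medians were −0.21, −0.44 and −1.42, and without cells holding a choroid plexus marker UMI the dural median was 1.12.

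Among matrix genes, more members were lower than higher, as among all genes (4.69% lower and 3.08% higher). Over all genes that balance turned, to 381 higher and 350 lower, without cells holding a choroid plexus marker UMI. Of 30 collagens, 1 was higher and 4 lower (median log2 ratio −0.15). The lower ones were Col4a1 (298 to 185 CPM) and Col4a2 (146 to 97.0 CPM), the main chains of basement membrane collagen, Col18a1 (348 to 205 CPM), whose end fragment is endostatin, and Col12a1 (161 to 95.3 CPM), a collagen that coats fibrils. The higher one, Col9a3, had 58 of its 90 tomatidine UMIs in 1 cell. With the laminin gene Lamb1 (171 to 101 CPM), 4 of 22 basement membrane genes were lower and 0 higher, at a median of −0.16, and Lama1, at 547 and 423 CPM, was not past the fold. Without the Alpl gate cells, Col18a1 was at −0.22 and Lamb1 at −0.51, both no longer past the fold, whereas Col4a1, Col4a2 and Col12a1 still were. With the collagens left out of the rule, Col18a1 turned to 0.15 (−0.11 to 0.42).

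In collagen processing, 3 of 25 genes were lower and 0 higher (median log2 ratio −0.17), where 4.69% of all genes were lower and 3.08% higher. Lox, the oxidase that starts crosslinks of collagen and elastin, went from 114 to 39.4 CPM, a log2 ratio of −1.53 (−1.97 to −1.10), and Plod1, a lysyl hydroxylase, from 73.6 to 47.1 CPM. The third, the procollagen protease gene Adamts3, had 19 and 14 UMIs and was at −1.21 (−2.48 to 0.01) without the cell with the most UMIs of the gene in each library. Sparc and Pcolce, which help collagen fold and mature, were at −0.17 and −0.34. Of 17 genes of elastic fibres and microfibrils, 4 were lower and 0 higher, at a median of −0.13, beside the same shares of all genes. They were Eln (170 to 99.1 CPM), Mfap4 (85.8 to 29.0 CPM) and Mfap5 (43.8 to 25.2 CPM), both microfibril proteins, and Emilin1 (224 to 137 CPM), which lies between elastin and microfibrils. Without the cell with the most UMIs of the gene in each library, Mfap5 was at −0.61 (−1.31 to 0.09). It was at 0.32 (−0.66 to 1.37) without cells holding a choroid plexus marker UMI. Of 9 small leucine-rich proteoglycans only Lum was past the fold, and the median was 0.03, with Dcn at 1739 and 1472 CPM.

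Matrix proteases and their inhibitors went in both directions. Of 22 genes, 2 were higher and 2 lower (median log2 ratio −0.07), against 3.08% and 4.69% of all genes. Adamts15, a protease of proteoglycans, went from 69.0 to 113 CPM, and Timp1, an inhibitor of metalloproteinases, from 18.6 to 37.3 CPM with 34 of 68 UMIs in 1 cell. Mmp19, a metalloproteinase, went from 58.7 to 32.3 CPM and the serine protease gene Htra1 from 234 to 153 CPM. Without the cell with the most UMIs of the gene in each library, Timp1 was at 0.62 (−0.34 to 1.67) and Htra1 at −0.56, neither past the fold. Timp3, at 2051 and 2022 CPM, and Timp2, at 615 and 569 CPM, had the most UMIs of the list and were not past the fold.

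Of 35 solute carriers, 3 were higher and 0 lower, against 3.08% and 4.69% of all genes, and 19 had a ratio above 0 and 16 below, at a median of 0.01. Slc22a8, an organic anion transporter like Slc22a6, went from 376 to 683 CPM, a log2 ratio of 0.86 (0.70 to 1.03), found in 114 of 200 control and 240 of 372 tomatidine cells. Slc16a12, a transporter of creatine, went from 83.9 to 144 CPM and Slc41a2, of a family that carries magnesium, from 25.2 to 41.1 CPM. Slc6a20a, at a log2 ratio of 0.55 (0.48 to 0.62), fell just short of the fold, and Slc7a11, the cystine exchanger, was at −0.05 (−0.14 to 0.03).

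In the retinoid pathway, 1 of 20 genes was higher and 5 lower (median log2 ratio −0.01), against 3.08% and 4.69% of all genes. Rbp4, the carrier of retinol in blood, went from 253 to 447 CPM, a log2 ratio of 0.82 (0.62 to 1.03). Dhrs3, which turns retinaldehyde back into retinol, went from 227 to 95.3 CPM, a log2 ratio of −1.25 (−1.54 to −0.96), and Rarb, a retinoic acid receptor that is itself induced by retinoic acid, from 77.4 to 42.7 CPM. Rarres2, the gene of chemerin, went from 184 to 112 CPM and the alcohol dehydrogenase gene Adh1 from 49.4 to 8.22 CPM. Crabp1 had 22 control UMIs in 4 cells and 1 tomatidine UMI. Without the Alpl gate cells, Rarb (−0.49), Adh1 (−0.76) and Crabp1 (−0.96) were no longer past the fold with an interval that left out 1, whereas Dhrs3, Rarres2 and Rbp4 still were. Without the cell with the most UMIs of the gene in each library, Rarres2 was at −0.48, short of the fold.

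Of 36 ligands of the BMP, TGF-beta, Wnt, IGF and related families, 3 were higher and 4 lower, against 3.08% and 4.69% of all genes, at a median of −0.04. The higher ones were Wnt ligands, Wnt6, Wnt5b (29.8 to 55.3 CPM) and Wnt2b (8 and 36 UMIs). Lower were Angpt1, the ligand of the Tie2 receptor on vessels (58.7 to 31.8 CPM), the lymphatic growth factor gene Vegfc (42.9 to 27.9 CPM), Edn3, the gene of endothelin 3 (162 to 99.7 CPM), and Hgf, the gene of hepatocyte growth factor (27 and 15 UMIs). Bmp6, at 1070 and 1252 CPM, and Igf2 had the most UMIs and were not past the fold. Vegfc was at −0.60 (−1.24 to 0.03) without the cell with the most UMIs of the gene in each library. Of the 7, Wnt6 (0.57) and Angpt1 (−0.01) were no longer past the fold without the Alpl gate cells, and Hgf was at 1.36 (−0.46 to 3.79). Wnt2b was at −1.21 (−4.79 to 1.91) without cells holding a choroid plexus marker UMI.

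Of 20 binding proteins of these factors, 2 were higher and 6 lower, against 3.08% and 4.69% of all genes. Their median log2 ratio was −0.15, and 0.23 without cells holding a choroid plexus marker UMI. Igfbp4 went from 939 to 431 CPM, a log2 ratio of −1.12 (−1.26 to −0.99), and Igfbp7 from 391 to 101 CPM, a log2 ratio of −1.95 (−2.20 to −1.69). Both were abundant in the Alpl gate cells, and without these Igfbp4 was at −0.53 and Igfbp7 at −0.04. The other lower members were Bambi, a decoy receptor of BMPs (57.8 to 27.9 CPM), Frzb, an inhibitor of Wnts (62.5 to 31.8 CPM), Ccn1 (93.2 to 45.5 CPM) and Ccn5 (40 and 16 UMIs, 23 in 1 cell). Frzb is also in the marker list of another cell type that is not reported here, and the part of such cells in its ratio was not tested. Besides Igfbp3, the BMP antagonist gene Nog was higher, with 4 and 22 UMIs. Igfbp2, at 2778 and 3151 CPM, and Nbl1, at 1101 and 1158 CPM, were not past the fold.

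**Figure D5:**
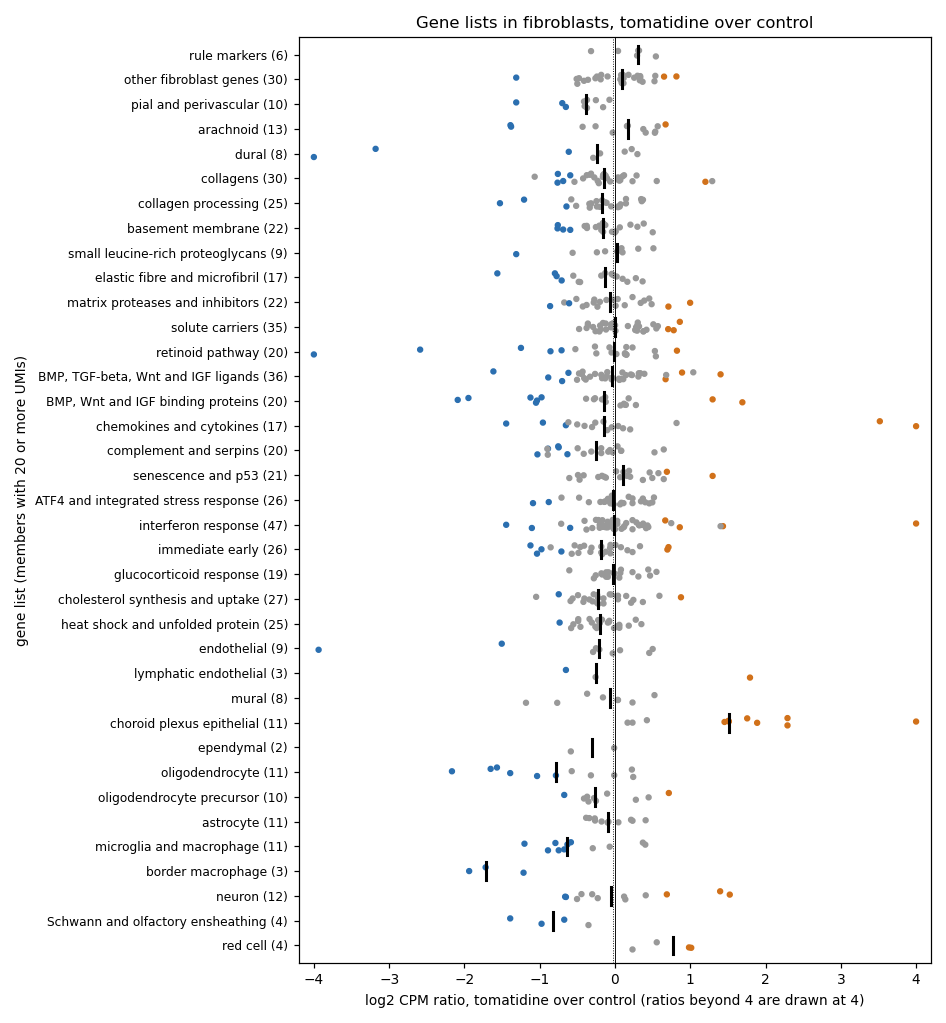
The log2 ratio of CPM, tomatidine over control, of the members of each list with 20 or more UMIs in fibroblasts. Points are genes, orange where higher and blue where lower in the tomatidine library, black bars are medians and the dotted line is the median of all genes (−0.03). The pial and perivascular list has its median at −0.39, and the lists of choroid plexus and red cell markers at the bottom have medians above 0.

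Of 17 chemokines and cytokines, 2 were higher and 3 lower, at a median of −0.15. Cxcl9 had 0 control and 38 tomatidine UMIs, all in 1 cell, and Ccl2, a chemokine for monocytes, 2 UMIs in 2 control cells and 39 UMIs in 7 tomatidine cells. Cxcl12, Il33, an alarmin (83.0 to 42.7 CPM), and Cxcl10 were lower, and 15 of 16 control UMIs of Cxcl10 were in 1 cell. Of 20 genes of complement and serpins, 0 were higher and 5 lower (median log2 ratio −0.25), against 3.08% and 4.69% of all genes. Serpinf1, which encodes the inhibitor of vessel growth PEDF, went from 403 to 239 CPM, a log2 ratio of −0.75 (−0.95 to −0.56), and C1s1, a complement protease, had 30 and 25 UMIs. The other members were C1qa, C1qb and C1qc, the chains of C1q, which are genes of microglia and macrophages.

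Of 47 interferon response genes, 4 were higher and 3 lower, against 3.08% and 4.69% of all genes, at a median of −0.01. Ifi27l2a (22 and 68 UMIs), Eif2ak2, the double-stranded RNA kinase (27 and 73 UMIs), Ifi44 (5 and 23 UMIs) and Cxcl9 were higher. Ifitm2, an antiviral membrane protein, went from 501 to 331 CPM, a log2 ratio of −0.60 (−0.77 to −0.42), and Rsad2 and Cxcl10 were lower with 18 of 24 and 15 of 16 control UMIs in 1 cell. Ifitm2 was at −0.57 without the cell with the most UMIs of the gene in each library, short of the fold. Lgals3bp, at 271 and 366 CPM, was not past the fold.

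The study turns on senescence, and its markers were rare in the fibroblasts. Cdkn1a, the gene of p21, had a UMI in 12 of 200 control fibroblasts (6.00%, 3.14 to 10.2%) and 17 of 372 tomatidine fibroblasts (4.57%, 2.68 to 7.22%), against 11.7% and 13.3% of the deeper excitatory neurons. Thinned to 1500 UMIs, it was found in 1.23% and 1.11% of fibroblasts and in 1.09% and 1.33% of neurons, so no difference was detectable at this depth. Its level was 15.8 and 10.4 CPM in fibroblasts and 161 and 114 CPM in endothelial cells. Cdkn2a, the gene of p16, was found in 0 of 200 control fibroblasts, which allows a share of cells with a UMI of up to 1.5% by a floor of 3 counts (exact upper bound 1.83%), and in 3 of 372 tomatidine fibroblasts (0.806%, 0.167 to 2.34%), against 0.749% and 0.874% of neurons. Of 21 genes of senescence and p53, 2 were higher and 0 lower (median log2 ratio 0.11), against 3.08% and 4.69% of all genes. They were Igfbp3 and Ccng1, a p53 target, from 43.8 to 70.7 CPM, and neither Igfbp5 (−0.17) nor Sesn1 (0.16) was past the fold.

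Atf4, the gene of a stress-response transcription factor, had a UMI in 18 control (9.0%) and 36 tomatidine (9.68%) fibroblasts, against 31.1% and 31.4% of neurons, and in 3.02% and 3.72% of fibroblasts and 2.5% and 2.73% of neurons once thinned. Of 26 ATF4 and integrated stress response genes, 0 were higher and 2 lower, against 3.08% and 4.69% of all genes, at a median of −0.03. Slc7a11 and its partner Slc3a2 were at −0.05 and −0.11. The lower ones were Cebpb, a transcription factor (124 to 67.4 CPM), and Aldh18a1, an enzyme of proline synthesis (25 and 20 UMIs).

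Genes that respond quickly to handling or hormones were also scattered. Of 26 immediate early genes, 2 were higher (Nr4a2 and Ier2) and 4 lower (Jun, Egr3, Dusp6 and Ccn1), against 3.08% and 4.69% of all genes (median log2 ratio −0.18). Jun, part of the AP-1 factor, went from 119 to 72.8 CPM and Dusp6, a phosphatase of ERK, from 81.1 to 37.3 CPM, while Jund was at 351 and 353 CPM. With the cell of most UMIs of the gene left out in each library, neither Nr4a2 (0.54, −0.09 to 1.20) nor Ier2 (0.66, −0.03 to 1.38) was called. With the collagens left out of the rule, Nr4a2 was at −0.42 (−1.26 to 0.44). Of 19 glucocorticoid response genes 0 were past the fold in either direction, at a median of −0.02, and the metallothionein genes Mt1 and Mt3 were at 0.06 and −0.01. Of 27 genes of cholesterol synthesis and uptake, 1 was higher (Stard4, 16 and 50 UMIs) and 1 lower (Dhcr7, 67.1 to 40.0 CPM) (median log2 ratio −0.22), and the regulators Srebf2 and Insig1 were at −0.24 and −0.15. Of 25 heat shock and unfolded protein genes, 1 was lower, the cochaperone gene Dnajb1 (42.0 to 25.2 CPM), and 0 were higher, at a median of −0.20.

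RNA of other cell types was present in the fibroblasts and differed between the libraries. Choroid plexus genes differed by cells and by UMIs in opposite ways. Ttr had a UMI in 168 of 200 control fibroblasts (84.0%) and 82 of 372 tomatidine fibroblasts (22.0%), against 90.9% and 27.0% of excitatory neurons. Thinned to 1500 UMIs the shares were 55.6% and 12% in fibroblasts, a difference of −43.6 points (−51.4 to −35.6), and 25.2% and 4.73% in neurons. By contrast the summed level of 14 choroid plexus markers was 2620 CPM in control and 6456 CPM in tomatidine fibroblasts, and 8 of 11 tested were higher, with none of the 14 at 0 in either library. The 1 tomatidine cell with 7781 Ttr UMIs decided these sums. The defining epithelial gene Folr1 was at 6.53 and 18.6 CPM in fibroblasts against 1469 and 1519 CPM in choroid plexus cells, with 31 of 34 tomatidine UMIs in 1 cell.

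Markers of myelin and of immune cells were lower in tomatidine fibroblasts. The 11 oligodendrocyte markers summed to 2957 CPM in control and 2024 CPM in tomatidine fibroblasts, with Mbp the most counted, 0 at 0 and 6 of 11 lower, where 4.69% of all genes were lower. Mog had 54 and 31 UMIs. The 11 microglial markers summed to 991 and 687 CPM, with 7 of 11 lower and 0 at 0, and the C1q genes named above are among them. The 10 border macrophage markers summed to 147 and 56.4 CPM, led by Mrc1, with 3 of 3 tested lower. However, Mrc1 was at −0.66 (−1.48 to 0.17) without the cell with the most UMIs of the gene in each library. Without cells holding a choroid plexus marker UMI, Mrc1 was at 1.46 (−0.16 to 3.49) and C1qb at 0.19 (−0.48 to 0.89).

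The summed levels of neuron and astrocyte markers were closer between the libraries, while those of vessel markers differed by list. The 14 endothelial markers summed to 543 and 444 CPM, led by Cdh5, with 2 of 9 lower (Cldn5 and Emcn) and 0 at 0. Cldn5 was at −0.96 (−2.66 to 0.70) without the cell with the most UMIs of the gene in each library. It was at 1.37 without cells holding a choroid plexus marker UMI. The 7 lymphatic markers summed to 352 and 304 CPM, led by Pdpn, with 1 higher and 1 lower of 3 and 1 at 0 in each library. The 14 mural markers summed to 4689 and 6480 CPM, most of it Vtn, with 0 of 8 past the fold and 1 at 0 in the control library. The 12 neuron markers summed to 2222 and 2367 CPM, led by Snap25. Of 12 tested, 3 were higher, among them Gad1 and Gad2, and 2 lower, so their close sums held moves in both directions. The 11 astrocyte markers summed to 2332 and 2164 CPM, led by Slc1a2, with 0 past the fold, and the 10 markers of oligodendrocyte precursors to 890 and 731 CPM, led by Pdgfra, which fibroblasts also carry, with 1 higher and 1 lower. The 10 ependymal markers were at 893 and 884 CPM, led by Pltp, with 4 control and 2 tomatidine members at 0. Red cell genes summed to 232 and 441 CPM, led by Hbb-bs, with 2 of 4 tested higher. The part that this RNA had in the differences of the fibroblast lists was not tested.

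Both pools held cells with Y-linked transcripts at like levels. Y-linked genes were at 272 CPM in control and 274 CPM in tomatidine fibroblasts, and had a UMI in 126 of 200 and 229 of 372 cells. Among the cells with such a UMI alone, 369 genes were higher and 592 lower.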

How the data were processed

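Single-cell RNA-seq was done with a probe-based kit for fixed cells, in 1 library from 4 pooled mice per group. What the authors deposited are counts, the UMIs of each of 19059 genes in each cell, not normalized, after alignment to mm10. The submitters' processing notes name Cell Ranger 8.0.0 and the file header 7.1.0. The library totals were 279525565 UMIs in 15912 control cells and 259059908 UMIs in 15185 tomatidine cells, of which 15183 had 500 UMIs, and 0 columns lacked a sample. Only genes with probes are counted, so Cx3cr1, Ly6c1 and other genes without a row were not analysed here, and values of some marker genes of other cell types and 1 marker list are not reported here.

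UMIs were summed over the fibroblasts of each library and divided by their total (CPM). Ratios have exact conditional binomial intervals, shares exact binomial (Clopper-Pearson) intervals and differences of shares Newcombe intervals. Genes with at least 20 UMIs over both libraries were compared, and a gene was counted as past the fold at 1.5-fold with an interval that left out 1. No p-value was computed. Shares of cells with a UMI were also given as the expected share with each cell thinned to 1500 UMIs, leaving out shallower cells. Other classes were gated as the fibroblasts were. Clusters were not built. Doublets were scored with Scrublet in scanpy 1.11.5. Coordinates are from GENCODE vM21, which matched 180 of 180 named genes, and start regions from RefSeq.

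The members, the 23 gene lists and the 13 marker lists of other cell types were chosen with earlier results of these data known. The text names the rule and gate genes, the 15 genes leading over other cells (at least 200 UMIs), the 10 at each end of the ranking (at least 100 UMIs), of each list the 2 genes with the most UMIs and those past the fold, and Cdkn1a, Cdkn2a and Atf4. The 3 sets of fibroblasts and the genes given for them, and the genes of other cell types given beside them, were chosen after their values were seen.

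The calculation was tested on simulated counts of 11634 genes for tomatidine over control in fibroblasts. Of 100 genes set at 2-fold 94% were called, of 100 at 4-fold 98%, and of unchanged genes 2.13%. The changed genes were drawn from those with at least 20 expected control UMIs. The simulated counts held counting error alone, without UMIs gathered in single cells as in the data. These percentages are therefore no rates of right or wrong calls for the fibroblasts. Python 3.11.15, numpy 2.4.6, pandas 2.3.3, scipy 1.17.1 and matplotlib 3.10.9 were used, and edgeR 4.0.16 for TMM factors alone. Alternatives changed the cell filters, doublet removal, the rule, scaling, low-count limit and thinning.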

Additional observations from a re-analysis of the deposited data

How the results depend on the processing

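The larger share of fibroblasts in the tomatidine library was also found under the 6 alternatives in which the share was computed (filters, doublet scores and rules), with differences from 0.968 to 1.61 points, 1.22 points under the study's filter and 1.61 with further limits of 6000 genes and 10% mitochondrial UMIs. The counts of higher and lower genes were 418 and 477 with TMM factors, 390 and 415 without the cell with the most UMIs of each gene, 417 and 467 where rule markers had to be 4 times the other sums, and 385 and 467 without the Alpl gate cells. They were 616 and 711 for the mean over cells, and 381 and 350 without cells that held a choroid plexus marker UMI, of which 57 and 143 were among the 358 and 546. That last setting left 95 control and 160 tomatidine cells. The settings without the Alpl gate cells (every cell with 5 or more UMIs of the gate genes, also those of the Slc47a1 set, with 184 control and 366 tomatidine cells left) and without cells rich in Ttr (185 and 369 left) were chosen after seeing the data.

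Medians that moved were those of the rule markers, at 0.11 without choroid plexus marker UMIs and 0.13 without the Alpl gate cells, and, with the collagens left out of the rule, of the pial (−0.21), arachnoid (−0.44) and dural (−1.42) lists. Without choroid plexus marker UMIs the dural list was at 1.12, the binding proteins at 0.23 and the glucocorticoid list at 0.31. The Ttr share differed by −51.6 points when thinned to 3000 UMIs.

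Log2 ratios of named genes past the fold that changed sign were as follows, and apart from the cells each setting leaves out the cause was not tested. Without the cell with the most UMIs of the gene, Cxcl10 was at 2.04, Folr1 at −0.77, Sst at −0.33 and Ttr at −0.88. In that setting 17 further named genes were no longer past the fold, Adamts3, Cldn5, Clic6, Col9a3, Dpp4, Htra1, Ier2, Ifitm2, Mfap5, Mrc1, Myoc, Nr4a2, Otx2, Rarres2, Rsad2, Timp1 and Vegfc. Another 4 came past the fold there, Ccn3 (0.59), Il13ra2 (0.59), Slc22a2 (0.61) and Prg4 (1.16). As a mean over cells Sst was at −0.26. Without choroid plexus marker UMIs the ratios that changed sign were C1qb 0.19, Cldn5 1.37, Mfap5 0.32, Mgp 0.40, Mrc1 1.46, Myoc −1.85, Sst −0.89, Ttr −3.03, Vip 0.37 and Wnt2b −1.21. With markers 4 times the other sums Vip was at 2.51. With the collagens left out of the rule, Col18a1 was at 0.15, Folr1 −0.17, Hgf 0.25, Nr4a2 −0.42, Sst −0.38, Ttr −0.10 and Vip 1.42. With the further quality limits, Clic6 was at −0.28, Col9a3 −0.67, Folr1 −2.01, Myoc −0.95, Sst −0.41 and Ttr −1.26. Without the Alpl gate cells Alpl was at 0.58 and Hgf at 1.36, and without cells rich in Ttr Clic6 was at −0.22, Ttr −2.66 and Vip 1.85. The counting interval of the changed ratio left out 0 for Mgp and Myoc without choroid plexus marker UMIs. It also left out 0 for Ttr in each of these settings but the rule without the collagens. For all other changes of sign given here the interval held 0. Named genes that lost the call without a change of sign numbered 36 without choroid plexus marker UMIs. There were 35 with the collagens left out of the rule and 31 as a mean over cells. The number was 28 without the Alpl gate cells, 22 with markers 4 times the other sums and 20 with the further quality limits.

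No paired analysis was possible because each group is 1 pooled library. With no second library, leaving out a replicate was not run. With 200 and 372 fibroblasts, at medians of 3999 and 3780 UMIs, genes with few UMIs had wide intervals, and in several genes named above 1 cell held most UMIs.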
